A study of Mus musculus with 4 samples.

Results

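The 6 Dlx genes of the mouse lie in 3 pairs, Dlx1-Dlx2 on chromosome 2, Dlx3-Dlx4 on chromosome 11 and Dlx5-Dlx6 on chromosome 6, and the peaks of accessible chromatin around each pair are described here. Every peak within 150 kb of the start site of a pair's gene was taken, with no use of its height. This gave 94 of the 99427 peaks in the E10.5 list and 36 of the 37548 peaks in the E11.5 list. The data come from ATAC-seq, in which the Tn5 transposase inserts sequencing adaptors where DNA is accessible, on fixed cells from the limbs of wild-type mice, with no other allele or agent named in the labels. Coordinates are those of the mouse build mm10. The number after E is the embryonic day. E10.5 and E11.5 were each represented by 2 replicates, and every replicate held fore- and hindlimb together, so the limbs cannot be told apart. How many embryos went into a replicate is not given in the sources used here. The stage called E10.5 in the sample titles is called E10 in the protocol.

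Dlx genes encode homeodomain transcription factors related to the fly gene Distal-less. In the limb they are known from the surface ectoderm and above all from the apical ectodermal ridge, the strip of epithelium at the limb margin that keeps the bud growing, and the combined loss of Dlx5 and Dlx6 splits the autopod. Dlx1 and Dlx2 are best known for the migration and differentiation of forebrain interneurons, Dlx3 for hair, tooth, bone and placenta. The genes of a pair are transcribed towards each other, and the DNA between them is known in several vertebrates to hold shared enhancers.

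Each stage is represented by 1 peak list that joins both replicates, so no value below has a replicate spread and no difference between stages was tested. Depth is unknown. The authors' signal value is read as summed across a peak, so wide peaks score high, and it is used here to order peaks within a list, as a rank with 1 the highest or as a percentile (the share of the list's peaks with a lower signal). Ranks and percentiles in lists of different length do not measure a change in accessibility. In whole limb tissue, fewer cells of a type and fewer accessible copies per cell cannot be told apart either. As a check of the tissue, promoter peaks (within 1 kb of a start site) were counted for lists of marker genes, beside 68.5% of all protein-coding genes in the E10.5 list and 62.6% in the E11.5 list. Limb mesenchyme markers had one in 11 of 11 genes at E10.5 and 8 of 11 at E11.5, where Tbx5, Tbx4 and Pitx1 lacked it. Markers of limb ectoderm and apical ridge had one in 8 and 4 of 10 genes, with Trp63 and Sp6 in neither list at the start sites used here. The counts were 5 and 6 of 7 for forebrain interneurons, 5 and 2 of 5 for muscle precursors, 3 and 1 of 5 for endothelium, 2 and 4 of 6 for blood and 4 and 3 of 5 for neural crest and glia. Most forebrain markers thus had a promoter peak in both lists, several counts lie near the share of all genes, and a promoter peak is not read as expression.

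The promoter sequences printed below include DNA inside peaks, for Dlx1 and Dlx2, and DNA outside them, for Dlx6os1. RefSeq promoter records (GRCm38.p6, 250 bases before to 50 after the start site) matched Dlx1 and Dlx2 among the 6 genes. The third sequence belongs to Dlx6os1, a long noncoding RNA gene also known as Evf2, which has 2 records. The one printed has its start in the interval between Dlx6 and Dlx5, and the other, chr6:6861634-6861933, lies upstream of Dlx6. The runs are 5′ to 3′ on the strand of the gene, and capitals mark matches on either strand to 5 short motifs: TAATTA, the core of many homeodomain sites including those of Dlx proteins, the GC box GGGCGG, the CCAAT box, the E-box CACGTG and the TATA motif TATAAA.
Dlx1, chr2:71529195-71529494, plus strand: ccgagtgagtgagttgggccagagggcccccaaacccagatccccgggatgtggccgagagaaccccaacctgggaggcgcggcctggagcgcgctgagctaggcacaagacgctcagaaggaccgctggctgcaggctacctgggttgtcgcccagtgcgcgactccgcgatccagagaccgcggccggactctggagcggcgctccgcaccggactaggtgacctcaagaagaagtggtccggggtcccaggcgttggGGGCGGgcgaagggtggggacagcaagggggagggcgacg
Dlx2, chr2:71546705-71547004, minus strand: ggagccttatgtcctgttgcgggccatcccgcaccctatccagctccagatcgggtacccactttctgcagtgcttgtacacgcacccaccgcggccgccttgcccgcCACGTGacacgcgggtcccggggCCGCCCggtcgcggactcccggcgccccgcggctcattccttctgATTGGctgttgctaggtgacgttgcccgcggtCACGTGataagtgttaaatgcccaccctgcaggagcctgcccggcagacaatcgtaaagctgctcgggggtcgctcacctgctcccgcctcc
Dlx6os1, chr6:6869484-6869783, minus strand: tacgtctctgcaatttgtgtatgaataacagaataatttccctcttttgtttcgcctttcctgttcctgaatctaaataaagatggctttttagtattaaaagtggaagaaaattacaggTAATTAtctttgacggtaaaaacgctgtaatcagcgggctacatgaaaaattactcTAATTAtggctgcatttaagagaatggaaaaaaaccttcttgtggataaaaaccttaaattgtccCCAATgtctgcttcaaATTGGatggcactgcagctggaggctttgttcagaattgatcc

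The Dlx1 record is 69.3% G and C with 27 CG dinucleotides, and the Dlx2 record is 66.3% G and C with 29. Both are far richer in CG than the median of 32851 promoter records, which is 52.7% G and C with 7 CG. The Dlx6os1 record between the genes is of the opposite kind, at 35.7% G and C with 5 CG. All 300 bases of the Dlx1 and of the Dlx2 record lay inside a peak in both lists, and 0 bases of this Dlx6os1 record did in either. Records of Dlx4os and Dlx6os2, not printed, were 53.3 and 51.7% G and C. Of their 300 bases, 45 and 185 lay inside an E10.5 peak and 0 inside an E11.5 peak. Dlx1 holds 1 GC box, whose first base is 10 bp after the start site. In Dlx2, E-boxes begin at -142 and -42 bp, a GC box at -119 and a CCAAT match at -74. The Dlx6os1 record holds TAATTA at -130 and -74 bp and CCAAT at -9 and 7 bp. Across all records, 5.29% hold TAATTA, 35.7% the GC box, 37.4% the CCAAT box, 7.15% the E-box and 13.6% the TATA motif. No match here says which protein binds.

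All 6 Dlx genes had a promoter peak at E10.5 and 5 of 6 had one at E11.5, Dlx4 being without. Among 21536 protein-coding genes, a promoter peak was present at E10.5 for 68.5% and at E11.5 for 62.6%. Of the genes with one at E10.5, 90.8% also had one at E11.5, so 5 of 6 is near what genes in general showed. When peaks below a -log10 p of 5 were dropped, Dlx1, Dlx2 and Dlx6 kept an E11.5 promoter peak, and Dlx4 had none at either stage.

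Dlx1 (Entrez Gene 13390, chr2:71528113-71533981, plus strand) had 1 promoter peak in each list. At E10.5 it ran over chr2:71528536-71530623 with a signal of 6551, rank 5955. At E11.5 it ran over chr2:71528924-71530311 with a signal of 1597, rank 12122. The E11.5 peak lay wholly inside the E10.5 peak, and the summits were 65 bp apart.

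Dlx2 (Entrez Gene 13392, chr2:71543408-71546754, minus strand) resembled its partner. Its E10.5 promoter peak, chr2:71545360-71547226, had a signal of 5238 and rank 9018, and its E11.5 peak, chr2:71546052-71547075, a signal of 1014 and rank 15715. The summits lay 36 and 59 bp upstream of the start site. Dlx1 and Dlx2 thus stood at percentiles 94.0 and 90.9 of the E10.5 list and at 67.7 and 58.1 of the E11.5 list.

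Dlx3 (Entrez Gene 13393, chr11:95120117-95125296, plus strand) had 2 E10.5 promoter peaks. The one over the start site, chr11:95119670-95120882, had a signal of 2465 and rank 22128. The other, chr11:95118421-95119415, had its summit 1.36 kb upstream and a signal of 1752. At E11.5 the peak over the start site, chr11:95119939-95120404, had a signal of 446 and rank 24405, and the upstream peak had no counterpart. Dlx3 was the only member whose E11.5 promoter peak lay below the median of its list, at percentile 35.0.

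Dlx4 (Entrez Gene 13394, chr11:95140447-95146294, minus strand) is the partner of Dlx3. Its single E10.5 promoter peak, chr11:95145058-95146579, had a signal of 1387 and rank 35370, the lowest place among the strongest promoter peaks of the 6 genes. It overlaps the antisense gene Dlx4os as well. The E11.5 list held no peak over any part of Dlx4. When the E10.5 list is cut into deciles of signal, the Dlx4 peak falls in decile 7, where 33.8% of peaks overlapped an E11.5 peak.

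Dlx5 and Dlx6, the pair whose combined loss affects the ridge, had the widest promoter peaks of the family at E10.5. For Dlx6 (Entrez Gene 13396, chr6:6863334-6867970, plus strand) the E10.5 peak covered chr6:6862389-6865285, 2897 bp, with a signal of 6807 and rank 5452, the strongest of all member promoters. At E11.5 this interval held 2 peaks, chr6:6862581-6863146 with a signal of 847 and chr6:6863257-6864318 with a signal of 1824 and rank 11088. The wide peak also reaches into Dlx6os1 and Dlx6os2, antisense genes at this promoter, so it cannot be given to Dlx6 alone.

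Dlx5 (Entrez Gene 13395, chr6:6877801-6882068, minus strand) had an E10.5 promoter peak at chr6:6879871-6883043, 3173 bp wide, with a signal of 5184 and rank 9170. At E11.5 the peak was 907 bp wide, chr6:6881335-6882241, with a signal of 1111 and rank 14949. Its summit lay 21 bp upstream of the start site, and that of the E10.5 peak 75 bp upstream. The order at E10.5 was Dlx6, Dlx1, Dlx2, Dlx5, Dlx3 and Dlx4, and at E11.5 it was Dlx6, Dlx1, Dlx5, Dlx2, Dlx3. With 1 joined list per stage, no neighbours in these orders can be said to differ.

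**Figure D1:**
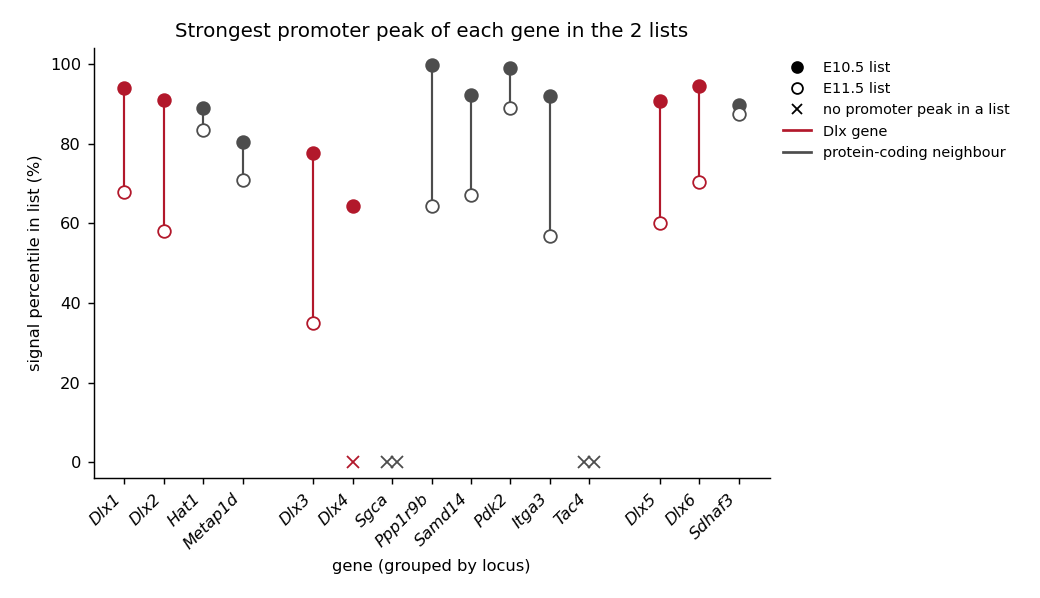
Percentile of signal (y axis, %) of the strongest promoter peak of each Dlx gene (red) and of each protein-coding neighbour in the 3 windows (grey), in the E10.5 list (filled) and the E11.5 list (open); crosses mark a list without a promoter peak, 2 crosses neither list. Dlx promoters stand at 64.4 to 94.5 in the E10.5 list and at 35.0 to 70.5 in the E11.5 list, with none for Dlx4, while Hat1 and Sdhaf3 stand at 83.5 and 87.5 in the E11.5 list.

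Compared with other promoters, those of the Dlx genes stood low in the E11.5 list for their place in the E10.5 list. The percentile of the strongest promoter peak, E11.5 minus E10.5, was -26.3 points for Dlx1, -32.8 for Dlx2, -42.7 for Dlx3, -30.6 for Dlx5 and -24.05 for Dlx6. For Dlx6 this sets the wide E10.5 peak against the stronger of the 2 E11.5 peaks in its interval (signals of 1824 and 847). Because signal is summed over a peak, such a split makes the difference more negative, and no gene was corrected for it. Over the 13399 protein-coding genes with a promoter peak in both lists, the median difference was -6.89 points, with quartiles of -15.0 and -1.24. Only 3.31% of these genes had a more negative difference than Dlx3, and 11.99% had one more negative than Dlx6. Among the 3257 genes whose E10.5 promoter peak stood between percentiles 90 and 95, as those of Dlx1, Dlx2, Dlx5 and Dlx6 did, the median was -6.71. Set beside all 34650 overlapping pairs of peaks, promoters or not, the Dlx values stood out less, since the median there was -22.02 points. These are places in 2 lists without replicates. Promoter peaks were also fewer in the E11.5 list over all protein-coding genes (68.5 and 62.6%), and 90.8% of genes with one at E10.5 had one at E11.5. They were fewer for the markers of ectoderm and ridge (8 and 4 of 10 genes), mesenchyme (11 and 8 of 11), muscle precursors (5 and 2 of 5), endothelium (3 and 1 of 5) and neural crest (4 and 3 of 5). They were more for blood (2 and 4 of 6) and forebrain interneurons (5 and 6 of 7). These lists are short, and no difference in their counts was tested. In percentile, single markers of other cell types differed as much as the Dlx promoters. Among them were Lmx1b of the mesenchyme list (percentiles 99.9 and 46.3), Lbx1 of muscle precursors (91.2 and 30.0) and Lhx6 of interneurons (85.2 and 16.2). These were picked after their values were seen. The part of cell types in these differences was not tested.

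Neighbouring genes with other roles spanned a wider range, from -35.1 to -2.10 points. Hat1, a histone acetyltransferase gene, differed by -5.44 points, Metap1d, a mitochondrial methionine aminopeptidase gene, by -9.72, and Sdhaf3, next to Dlx5, a succinate dehydrogenase assembly factor gene, by -2.10. In the Dlx3-Dlx4 window, Pdk2, a pyruvate dehydrogenase kinase gene, differed by -9.88, but Ppp1r9b by -35.1, Itga3, an integrin gene, by -35.1 and Samd14 by -25.2. The Ppp1r9b value sets a wide E10.5 peak against the strongest of the 3 E11.5 peaks it overlapped, so it is more negative in the same way as for Dlx6. Of 9 protein-coding neighbours, 7 had a promoter peak in both lists, and Sgca and Tac4 had none in either.

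Inside the genes and between them, nearly all peaks belonged to the E10.5 list alone. Beyond the Dlx promoters, 5 E10.5 peaks lay in a Dlx gene and 10 lay between the genes of a pair. Among the 10 are promoter peaks of the long noncoding RNA genes Gm38659 and Dlx6os1. Of the 5 in genes, 0 overlapped an E11.5 peak, with a 95% Wilson interval of 0 to 43.4%. The limit of 3 counts, which is rough for so few peaks, gives 60%. Of the 10 between genes, 1 did, with a 95% Wilson interval of 1.79 to 40.4% that covers counting error only. Over the whole E10.5 list, 32.3% of peaks overlapped an E11.5 peak by at least 1 bp. The median percentile of the 10 peaks was 69.9, and over the list the overlapping share was 33.8% in decile 7 and 54.0% in decile 8. The interval holds the whole-list value and that of decile 7, but not that of decile 8. The 10 peaks themselves ranged from decile 3 to decile 9.

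**Figure D2:**
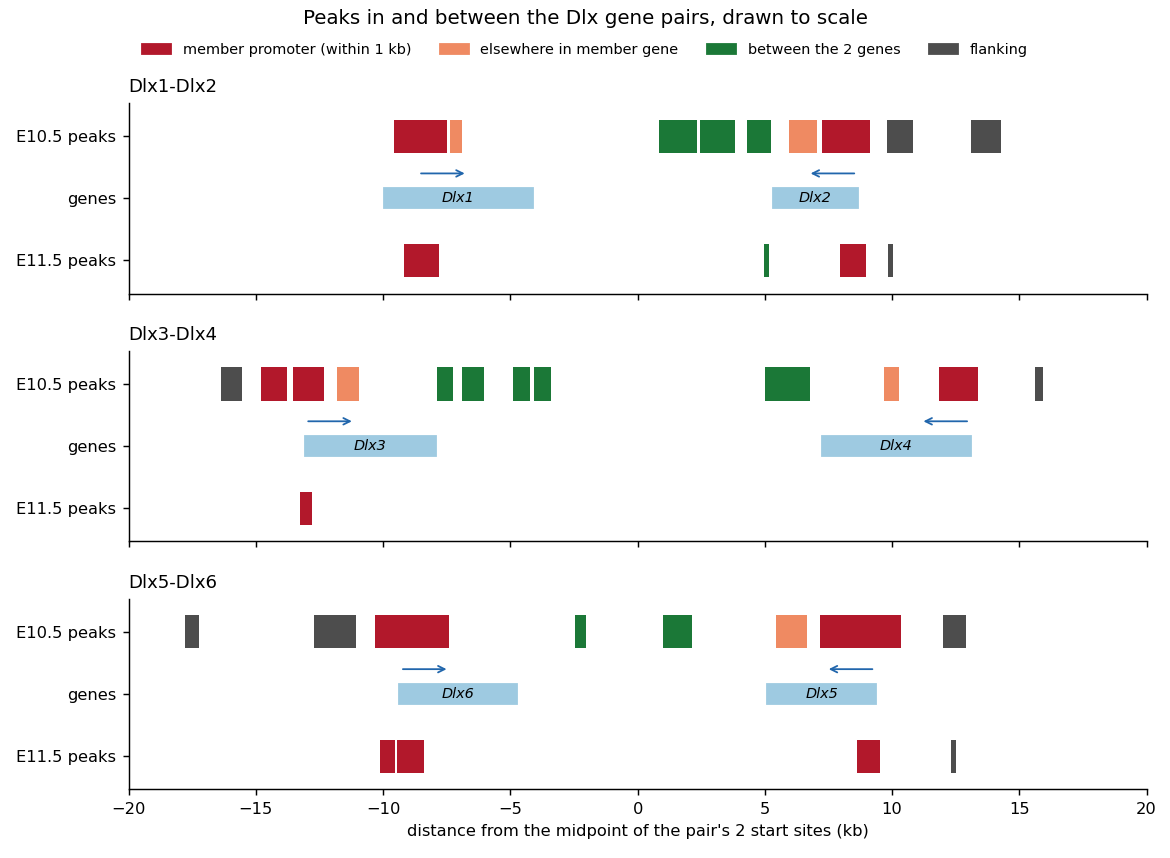
Peaks of both lists (boxes drawn to scale) around each pair, with gene bodies in blue and arrows from the start site in the direction of transcription; the x axis is distance in kb from the midpoint of the 2 start sites. The E10.5 row has 10 peaks between the genes over the 3 pairs and the E11.5 row has 1, beside Dlx2.

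Between Dlx1 and Dlx2, an interval of 9426 bp, the E10.5 list held 3 peaks. They lay at chr2:71538928-71540429 with a signal of 1993, at chr2:71540532-71541916 with 2496 and at chr2:71542411-71543355 with 1774. The E11.5 list held 1, chr2:71543068-71543272, inside the third of these, with a signal of 219 and rank 35821, close to the end of the list. All 3 E10.5 peaks lay nearer to the Dlx2 start site than to that of Dlx1, and the stretch next to Dlx1 was without a peak. In the gene bodies, Dlx1 held 1 further E10.5 peak with a signal of 274, where the antisense gene Dlx1as also lies, and Dlx2 held 1 with 1534.

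The interval between Dlx3 and Dlx4 is longer, 15150 bp, and held 5 E10.5 peaks and no E11.5 peak. The strongest, chr11:95138199-95139965, had a signal of 2831 and covers the start site of the long noncoding RNA gene Gm38659, so it is also a promoter peak of that gene. Next came chr11:95126306-95127150 with 2208, and chr11:95125319-95125958 with 767 at the end of Dlx3. The last 2, at chr11:95128312-95128963 and chr11:95129133-95129798, had signals of 461 and 359. The bodies of Dlx3 and Dlx4 held 1 further E10.5 peak each, with signals of 762 and 709 and no E11.5 overlap.

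Between Dlx6 and Dlx5 (9830 bp) there were 2 E10.5 peaks and no E11.5 peak. One, chr6:6873679-6874823, had a signal of 1674. The other, chr6:6870239-6870666, had a signal of 853 and lies in Dlx6os1, upstream of the start site whose AT-rich record is printed above. It is within 1 kb of that start site, so it counts as a promoter peak of Dlx6os1 by the rule used here. A further E10.5 peak in the body of Dlx5, chr6:6878149-6879357, had a signal of 1952.

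Further out, the 3 windows differed in how many peaks they held, while the proportion between the lists was alike. The Dlx1-Dlx2 window (chr2:71379445-71696754) had 30 E10.5 and 11 E11.5 peaks, a ratio of 2.73. Around Dlx3-Dlx4 (chr11:94970117-95296294) there were 49 and 18, a ratio of 2.72. Around Dlx5-Dlx6 (chr6:6713334-7032068) there were 15 and 7, a ratio of 2.14. The whole lists stand at 2.65. Per 100 kb this was 9.45, 15.0 and 4.71 peaks at E10.5, and 3.47, 5.52 and 2.20 at E11.5.

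Set beside all protein-coding genes, whose median within 150 kb was 16 E10.5 and 7 E11.5 peaks, the pairs spanned the range from typical to crowded. Dlx3 had 49 E10.5 peaks, more than 98.4% of genes, and Dlx4 had 45, more than 97.4%. Dlx1 and Dlx2 had 29 each, more than 81.6%. Dlx5 and Dlx6 had 15 each, more than 47.0%. At E11.5 Dlx3 had 18 and Dlx4 14, Dlx1 had 11 and Dlx2 10, and Dlx5 and Dlx6 had 7 each. The Dlx3-Dlx4 window also holds the most protein-coding neighbours, 6 against 2 and 1.

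**Figure D3:**
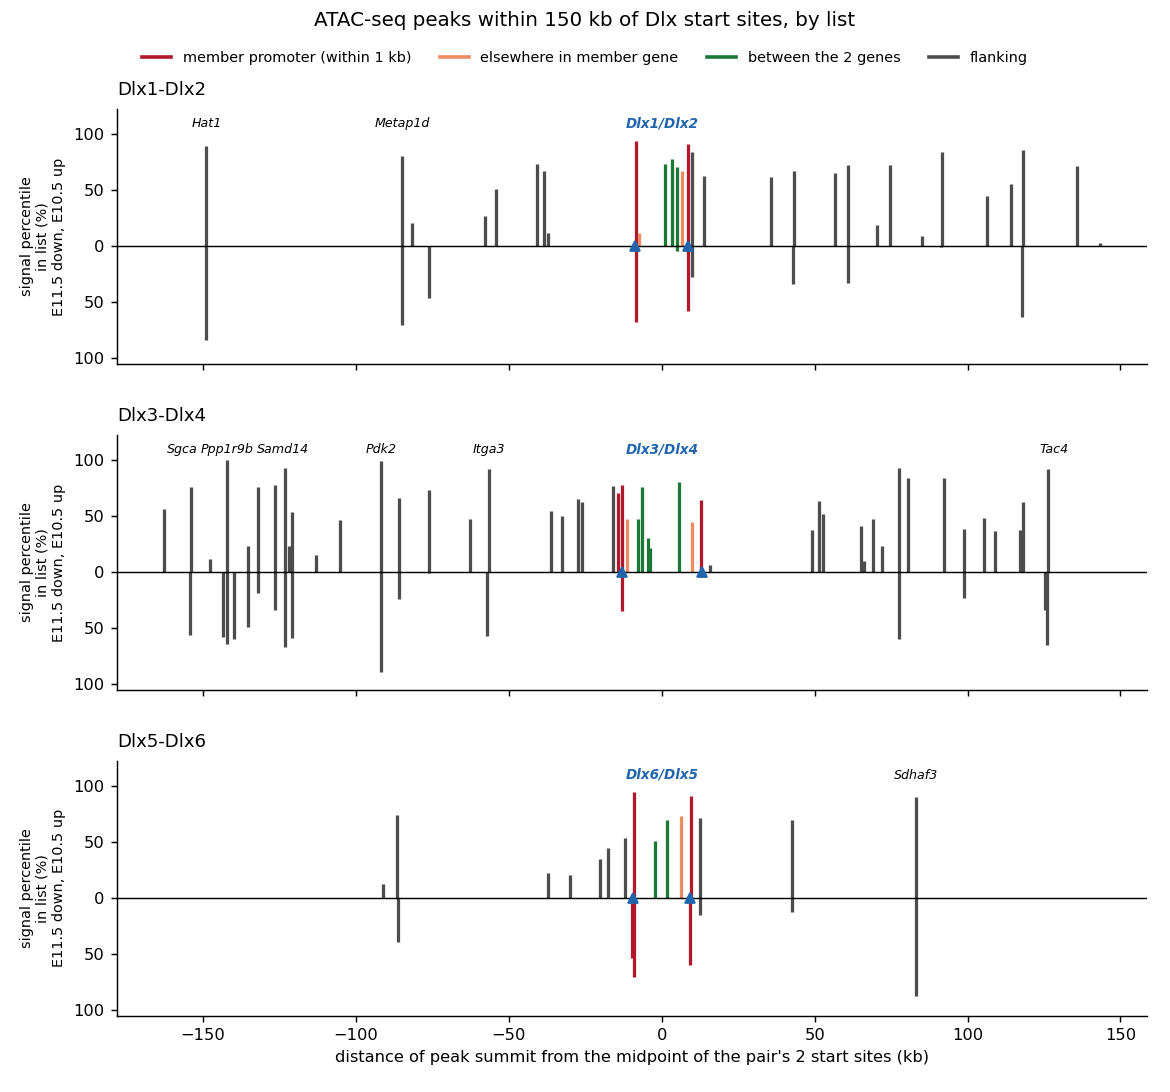
Every peak within 150 kb of the Dlx start sites, placed by its summit (x axis, kb from the midpoint of the pair's start sites) with its percentile of signal in the E10.5 list upward and in the E11.5 list downward (y axis, %). Blue triangles mark the Dlx start sites and italics the start sites of protein-coding neighbours. The Dlx5-Dlx6 window holds 15 and 7 peaks, the Dlx3-Dlx4 window 49 and 18.

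Most of the peaks flanked the pairs, 72 in the E10.5 list and 29 in the E11.5 list. Of these, 7 and 8 were promoter peaks of protein-coding neighbours, and all 15 of them overlapped a peak of the other list. Among the remaining flanking peaks, 18 of 65 at E10.5 (27.7%, 95% Wilson interval 18.3 to 39.6%) and 20 of 21 at E11.5 overlapped the other list. These remaining peaks include promoter peaks of long noncoding RNA genes.

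On chromosome 2, the 5 strongest E10.5 flanking peaks were the Hat1 promoter (signal 4613), chr2:71654830-71656526 at the long noncoding RNA gene Gm36909, 109 kb upstream of Dlx2 (3799), chr2:71628654-71630539, 82.8 kb upstream (3425), chr2:71547912-71548935, 1.35 kb upstream (3350), and the Metap1d promoter (2827). All 5 overlapped an E11.5 peak. In the E11.5 list the strongest were Hat1 (3325), Metap1d (1850), the Gm36909 peak at chr2:71655655-71656434 (1270), a peak in Metap1d at chr2:71461653-71461913 (626) and chr2:71581061-71581450, 34.4 kb upstream of Dlx2 (434). The peak 82.8 kb upstream of Dlx2 was matched by an E11.5 peak of 158 bp with a signal of 203, rank 37290 of 37548. The peak in Metap1d, 67.6 kb upstream of Dlx1, was the only E11.5 peak of all 3 windows without an E10.5 overlap.

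On chromosome 11, the strongest E10.5 flanking peaks were at Ppp1r9b (chr11:94988631-94994526, signal 15303, rank 423), the Pdk2 promoter (11658), chr11:95210089-95211658, 64.6 kb upstream of Dlx4 in the long noncoding RNA gene Gm11515 (5845), the Samd14 promoter (5780) and chr11:95258107-95260474, 113 kb upstream of Dlx4 in the same gene (5710). The Ppp1r9b peak is 5896 bp wide and overlapped 3 E11.5 peaks. At E11.5 the strongest were Pdk2 (4205), Samd14 (1551), chr11:95259088-95259813 in Gm11515 (1426) and 2 of the Ppp1r9b peaks (1362 and 1106). The Dlx4 side of the window held 17 E10.5 flanking peaks, 3 of them shared, and the Dlx3 side, which holds most of the neighbouring genes, held 22, of which 11 were shared. Over the whole E10.5 list, 32.3% were shared. The median signal was 765 on the Dlx4 side and 1366 on the Dlx3 side, and no difference between sides was tested.

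On chromosome 6, the strongest E10.5 flanking peaks were the Sdhaf3 promoter (4812), chr6:6785805-6786718, 77.1 kb upstream of Dlx6 (2008), and chr6:6884718-6885586 (1835) and chr6:6914688-6915822 (1719), 3.08 and 33.3 kb upstream of Dlx5. The fifth, chr6:6859970-6861618, with a signal of 943, lay in Dlx6os1, 2.73 kb upstream of Dlx6 and within 1 kb of the other Dlx6os1 start site. The first 4 recurred at E11.5 with signals of 3959, 508, 276 and 259, and these were the only E11.5 flanking peaks there. On the Dlx5 side 3 of 3 E10.5 peaks were shared, and on the Dlx6 side, 5 of whose peaks lie in Dlx6os1, 1 of 7 was, beside 32.3% of the whole list. The median signal was 1835 on the Dlx5 side and 524 on the Dlx6 side, and these are too few peaks to compare the sides.

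Counted over the 3 windows, 31 of 94 E10.5 peaks (33.0%, 95% Wilson interval 24.3 to 43.0%) overlapped an E11.5 peak, beside 32.3% of the whole list. Of the E11.5 peaks, 35 of 36 (97.2%, 85.8 to 99.5%) overlapped an E10.5 peak, beside 91.6% of the whole list. By pair, the E10.5 share was 33.3% (10 of 30) at Dlx1-Dlx2, 30.6% (15 of 49) at Dlx3-Dlx4 and 40.0% (6 of 15) at Dlx5-Dlx6. The E11.5 share was 10 of 11, 18 of 18 and 7 of 7. All intervals hold the whole-list value, so no difference from the lists was detectable at this number of peaks.

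Signal separated the shared peaks from the others, as in the lists at large. The 31 shared E10.5 peaks had a median signal of 2827 (379 to 15303) and the 63 others a median of 789 (217 to 3352). All 10 window peaks in decile 10, the top of the E10.5 list, were shared, and so were 96.7% of that decile. The 5 strongest E10.5 peaks without E11.5 overlap were chr11:95213256-95214819 (3352) and chr11:95223601-95225868 (3329), both in Gm11515 on the Dlx4 side, the peak between Dlx3 and Dlx4 at Gm38659 (2831), the middle peak between Dlx1 and Dlx2 (2496), and chr11:95116828-95117646, 2.91 kb upstream of Dlx3 (2287). The first 3 belong to decile 9, in which 81.3% of peaks overlapped, and the other 2 to decile 8. Of the 5, the peak with a signal of 3329 is a promoter peak of Gm11515 and that with 2831 is one of Gm38659.

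Where both lists had a peak, the summits lay close together in most pairs. The windows held 35 overlapping pairs of peaks, and the summits were within 100 bp in 25 of them, beside 76.3% of all 34650 pairs. The median distance between summits was 33 bp, against 27 bp over all pairs, and the largest in the windows was 2268 bp. The E11.5 peak was the narrower in 33 of 35 pairs, beside 88.2% of all pairs, with median widths of 1213 and 554 bp. It stood at a lower percentile in 33 of 35, beside 88.4%. Both exceptions were in the Dlx3-Dlx4 window, at chr11:94997606-94997975 in Ppp1r9b, at percentile 23.5 in the E10.5 list and 49.4 in the E11.5 list, and at chr11:95012003-95012556 in Samd14, at 53.8 and 59.3.

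**Figure D4:**
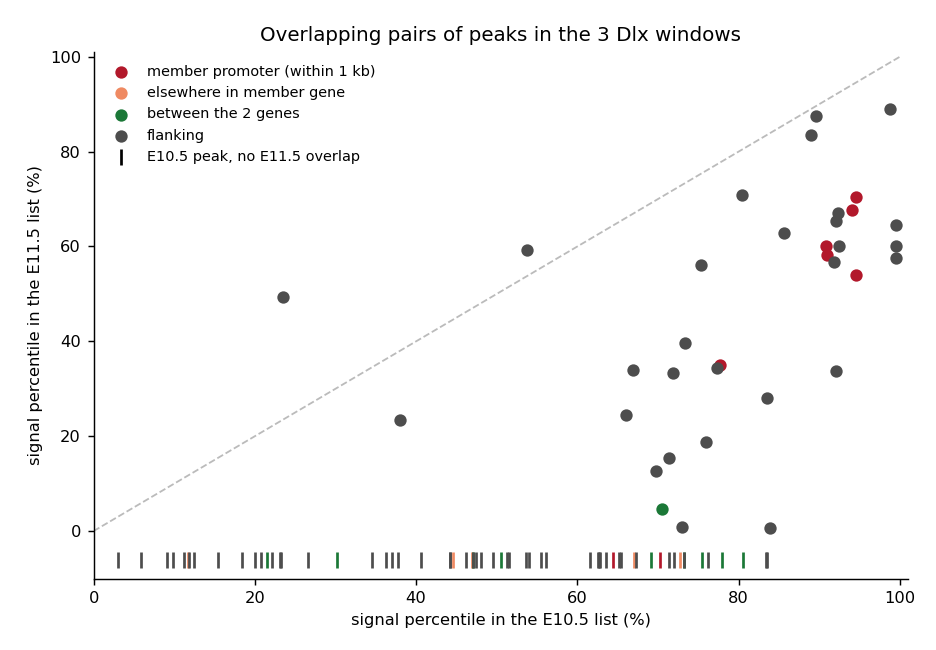
Each point is 1 of the 35 overlapping pairs of peaks in the 3 windows, at its percentile of signal in the E10.5 list (x axis, %) and the E11.5 list (y axis, %), coloured by class; ticks at the bottom are the 63 E10.5 peaks without E11.5 overlap. In 33 pairs the point lies below the dashed line of equal percentile.

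Other genes of the apical ridge and of the circuits around Dlx genes were read in the same way from a list of 21. At E10.5, 19 had a promoter peak, beside 68.5% of all genes, and at E11.5, 12 did, near the 62.6% of all genes. All 12 were among the 19, whereas 90.8% of all protein-coding genes with an E10.5 promoter peak also had one at E11.5. Sp8 and Sp9, zinc-finger genes needed for the ridge, had one in both lists, at percentiles 93.3 and 85.5, and then 80.8 and 58.7. Msx1 and Msx2, homeobox genes of the distal mesenchyme and ridge, stood at 99.7 and 88.4, and then at 75.5 and 58.0. Fgf8, the ridge's main growth factor gene, and Fgf4, Fgf17, Wnt3, Wnt7a, Wnt10b and Cyp26b1 had a promoter peak in the E10.5 list only. Those of Fgf4 and Cyp26b1 were weak, at percentiles 16.9 and 18.1, and the others stood at 75.1 to 84.3. In decile 2 of the E10.5 list, which holds these 2 weak peaks, 4.74% of peaks overlapped an E11.5 peak. Trp63, which encodes the epithelial master regulator p63, and Sp6 had none in either list at the start sites used here. Other start sites these genes may have were not looked at. Over the 12 genes with both, the difference in percentile ran from -38.7 for Dkk1, a Wnt antagonist gene, to -4.36 for Bmp2, with a median of -21.5, against -30.6 over the 5 Dlx genes with both and -6.89 over all genes.

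Among 47 homeobox genes, those closest to each pair in the number of peaks within 150 kb were found by the distance in log2(1 + peaks), over only 2 lists. For Dlx1-Dlx2 they were Dbx1 (28 and 9 peaks), Cdx2 (27 and 9) and Prrx1 (33 and 12). For Dlx3-Dlx4 they were Evx2 and Hoxd13, which share a window (44 and 15 each), and Hoxa13 (57 and 19). For Dlx5-Dlx6 they were Nkx3-2 and Shox2 (14 and 6 each) and Bsx (18 and 8).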

How the data were processed

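ATAC-seq was done on 4 samples, 2 each at E10.5 and E11.5, grouped by sample title. The authors deposited 1 narrowPeak list per stage, on mm10 per the file headers, named for both replicates. The submitters' processing notes list cutadapt, Bowtie2, SAMtools, deepTools and Genrich, a peak caller, without roles or settings, and how replicates were joined is not given in the sources used here. The deposited signal value, above 200 in every peak, is read as a total over the peak. A −log10 p-value was deposited for every peak. The deposited score follows from signal and width in 100% of peaks, and the deposited q-value column holds -1 throughout, so neither was used. Read depth is unknown.

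Gene positions came from RefSeq (GRCm38.p6, the mm10 coordinates). Start sites came from RefSeq promoter records or, for genes without one (Dlx3, Dlx4, Dlx5 and Dlx6 among them), from the outer end of the gene, with strand from GENCODE M1. This placed 21536 of 21900 protein-coding genes. Exon structure in mm10 was not used here. Peaks overlapping by at least 1 bp were called shared. Wilson intervals (95%) and the limit for a count of 0 (3 counts) cover counting error only. Coordinates are 1-based. Overlap code was tested on simulated intervals. Python 3.11.15, pandas 2.3.3 and scipy 1.17.1 were used. No hypothesis test was made, since no list has replicates. The members and gene lists were chosen with earlier results of these data known. The text names the 6 genes with their promoter peaks, all peaks between paired genes, the 5 strongest flanking peaks per window and list, all E11.5 peaks without overlap and the 5 strongest E10.5 peaks without overlap. Alternatives were a stricter p-value, E10.5 lists cut to the E11.5 number, other overlap rules, windows and promoter widths.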

Additional observations from a re-analysis of the deposited data

How the results depend on the processing

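No paired analysis was possible because the replicates of a stage come as a single joined list, which also leaves no replicate to drop. All counts depend on a depth that is unknown. Of 65 values under alternatives, 38 stayed within 1.5 times the reported count and 27 did not. The 38 include counts of E11.5 peaks and E11.5 promoter peaks with only the E10.5 list cut, which could not change. Each alternative keeps fewer peaks or pairs, or takes in more, by its construction. With -log10 p of at least 5, Dlx1-Dlx2 had 6 E11.5 peaks (5 shared), Dlx3-Dlx4 26 E10.5 and 10 E11.5 peaks (8 shared), Dlx5-Dlx6 3 E11.5 peaks (3 shared), and 3 Dlx genes an E11.5 promoter peak. With the E10.5 list cut to 37548 peaks by signal, 19, 23 and 8 E10.5 peaks were left at Dlx1-Dlx2, Dlx3-Dlx4 and Dlx5-Dlx6, and by -log10 p 16, 21 and 6. With 50% reciprocal overlap 4, 5 and 1 E11.5 peaks were shared, and with summits within 100 bp 11 at Dlx3-Dlx4. Within 75 kb there were 7 E11.5 peaks (6 shared) at Dlx1-Dlx2, and 29 E10.5 and 5 E11.5 peaks (5 shared) at Dlx3-Dlx4. Within 300 kb there were 54 E10.5 peaks at Dlx1-Dlx2, and 80 E10.5 and 31 E11.5 peaks (31 shared) at Dlx3-Dlx4. The number of Dlx genes with a promoter peak was 6 and 5 with promoters of 500 bp, 1 kb or 2 kb. Taking the Dlx1 start at the end of its gene record, chosen after seeing the data, changed none of the counts it was run on.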

Other observations

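Beyond the 150 kb window, the gene desert and genes on the Dlx6 side are known to hold limb enhancers of Dlx5 and Dlx6, some of them inside Dync1i1, a dynein intermediate chain gene. This interval was looked at after the windows had been seen. Dync1i1 (chr6:5725600-6028039) ends 835 kb from the Dlx6 start site and held 21 E10.5 and 5 E11.5 peaks. Of the Dync1i1 peaks, 5 of 21 and 5 of 5 were shared, beside 32.3% and 91.6% of the whole lists. Apart from its promoter, the shared E10.5 peaks were chr6:6005490-6006713 with a signal of 5780, rank 7679 and 857 kb from Dlx6, chr6:6026810-6028433 with 3760, chr6:5802236-5803528 with 3731 and chr6:6016735-6017478 with 1657. Their E11.5 counterparts had signals of 2405, 264, 486 and 382. The peak 857 kb from Dlx6 stood above every member promoter of the E11.5 list, where Dlx6 had 1824. Between Dync1i1 and the window, Slc25a13 held 13 and 3 peaks and Sem1 1 and 1. The 285 kb from the end of Sem1 to Dlx6, of which the 150 kb next to Dlx6 belong to the window, held 10 E10.5 peaks and 2 E11.5 peaks. These counts include the 7 E10.5 flanking peaks on the Dlx6 side of the window. They also include the E11.5 window peaks chr6:6785968-6786403 and chr6:6862581-6863146. Which gene any of these peaks serves was not tested.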
